A study of Mus musculus with 8 samples.

Results

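The Schlafen family was followed through 7 mouse genes, Slfn1, Slfn2, Slfn3, Slfn4, Slfn5, Slfn8 and Slfn9, chosen by their symbols among the 31574 genes of the deposited expression table. All 7 were above the table's detection floor in all 8 libraries, so all 7 were among the 18051 genes tested. The libraries were made from c-kit+ cells of an acute myeloid leukaemia taken from mouse bone marrow, on the C57BL/6 background. They fall into 4 groups of 2 libraries. The Ezh1-null tamoxifen group is Ezh1-/- Ezh2-/-, and the Ezh1-null oil group is Ezh1-/- with Ezh2 intact. The Ezh1-present tamoxifen group is Ezh1+/+ Ezh2-/-, and the Ezh1-present oil group is Ezh1+/+ with Ezh2 intact. The study's design text gives the Ezh2 alleles of the oil groups as floxed. Tamoxifen was injected at 10 mg/kg per day in corn oil for 5 doses, the oil groups received corn oil, and cells were taken 7 days after treatment. Ezh1 and Ezh2 are the alternative catalytic subunits of Polycomb repressive complex 2, which methylates lysine 27 of histone H3 at silent genes. Library titles carry the prefix Moz, which the labels do not explain, and the Cre driver is not given in the sources used here. Tamoxifen exposure and Ezh2 deletion always went together, and the Ezh1 genotypes may be different leukaemias, so in each case the 2 factors cannot be told apart. The labels do not say that the 2 libraries of a group came from separate mice, so the p-values measure the spread between these libraries, which may be technical.

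Schlafen genes form a rapidly evolving family that in mice sits in a single cluster. Short members (Slfn1, Slfn2) carry the core Schlafen region, intermediate members (Slfn3, Slfn4) add a linker region, and long members (Slfn5, Slfn8, Slfn9) add a helicase-like region. Several are induced by interferon, and the family is known for holding T cells and monocytes in quiescence and for restraining the growth of blood cells. In the mouse, loss of Slfn2 function costs T cells and monocytes their quiescence, and forced Slfn1 expression slows the growth of thymocytes. Slfn4 is known from activated macrophages and developing myeloid cells.

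In the deposited coordinates, which the labels place on build mm10, the 7 genes lie on chromosome 11 between bases 82952102 and 83215154, a span of 263053 bases. Their order is Slfn5 (82952102 to 82964850), Slfn9 (82980303 to 82991830), Slfn8 (83002158 to 83020810), Slfn2 (83065112 to 83070678), Slfn1 (83116845 to 83122659), Slfn4 (83175186 to 83190216) and Slfn3 (83191330 to 83215154). The long members thus stand at one end of the cluster and the short and intermediate members at the other. The narrowest gap between neighbouring members, between Slfn4 and Slfn3, was 1113 bases and the widest, between Slfn1 and Slfn4, 52526 bases.

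Promoter windows of the 250 bases before each RefSeq start (build GRCm38.p6, the same assembly as mm10) were available for all 7 members. They are shown because the letters picked out below divide the long members from the others. Whether these letters have a part in the expression of any member was not tested. The core of the interferon-stimulated response element, GAAA, any 2 bases and GAAA again, was searched on both strands. It was present in the windows of the 3 long members. The windows are printed 5′ to 3′ on the strand of the gene, with the element in capitals. It stands on the coding strand at bases -155 to -146 from the start in Slfn5, and on the opposite strand at -48 to -39 in Slfn8 and -45 to -36 in Slfn9.
Slfn5, chr11:82951852-82952101, plus strand: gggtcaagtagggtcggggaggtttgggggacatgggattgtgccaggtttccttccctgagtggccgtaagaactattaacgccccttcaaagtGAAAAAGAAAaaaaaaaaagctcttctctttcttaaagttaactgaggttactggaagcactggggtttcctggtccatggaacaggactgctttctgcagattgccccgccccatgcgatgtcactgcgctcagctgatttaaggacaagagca
Slfn8, chr11:83020811-83021060, minus strand: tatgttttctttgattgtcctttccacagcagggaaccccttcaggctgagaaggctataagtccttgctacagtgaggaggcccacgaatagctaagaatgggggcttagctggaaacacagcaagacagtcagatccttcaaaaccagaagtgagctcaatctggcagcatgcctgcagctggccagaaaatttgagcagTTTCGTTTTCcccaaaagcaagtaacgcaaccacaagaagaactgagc
Slfn9, chr11:82991831-82992080, minus strand: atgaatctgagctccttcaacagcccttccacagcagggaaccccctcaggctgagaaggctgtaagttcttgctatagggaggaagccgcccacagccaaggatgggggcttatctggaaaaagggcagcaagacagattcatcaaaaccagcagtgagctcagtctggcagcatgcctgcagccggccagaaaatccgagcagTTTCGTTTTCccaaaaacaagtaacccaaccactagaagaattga

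The windows of Slfn8 and Slfn9 were the most alike of the 21 pairs, with 206 identical bases and 79.8% identity over the alignment. The other 20 pairs lay between 40.7% and 49.1%. Counted over any window of a gene, the element core occurred in 3.46% of the 27025 genes with a window. On the same count it occurred in 9 of 22 genes (40.9%) of a list of interferon-stimulated genes. Schlafen members were read from a single window each, and 3 of 7 (42.9%) had it, so these shares are not counted alike. The core of the gamma-activated site, TTCNNNGAA, was in none of the 7 windows and, counted over any window of a gene, in 8.13% of the genes with a window.

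The short and intermediate members shared another stretch, ACTTCCTGG, which was chosen after the windows had been read. It was in 4 of 7 Schlafen windows and, counted over any window of a gene, in 0.829% of all genes with a window. Since the stretch was chosen from these windows, its count in them was fixed by that choice and tests nothing. Each stretch is printed with the bases around it, on the plus strand, which is the coding strand of these 4 genes. Counted from the RefSeq start, the stretch in capitals runs from -74 to -66 in Slfn1, from -55 to -47 in Slfn2, from -42 to -34 in Slfn3 and from -73 to -65 in Slfn4. No match to 1 of the 3 letter patterns overlapped a match to another in these windows.
Slfn1, chr11:83116726-83116774: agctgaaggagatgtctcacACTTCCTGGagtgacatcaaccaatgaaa
Slfn2, chr11:83065037-83065085: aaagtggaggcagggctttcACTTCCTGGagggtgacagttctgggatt
Slfn3, chr11:83191268-83191316: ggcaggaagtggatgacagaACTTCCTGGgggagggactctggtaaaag
Slfn4, chr11:83175093-83175141: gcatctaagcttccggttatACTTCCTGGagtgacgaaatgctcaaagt
For Slfn1 the RefSeq start lies 25 bases from the deposited start, and for the other 6 genes the starts coincide.

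Deposited values were log2 normalized expression, raised to a floor where low and centred on each gene's median over the 8 libraries. A value of 1 therefore stands for expression 2-fold above that gene's own median, and values cannot be compared between genes as levels. Total counts were not recoverable. The normalized value of 1 read, smaller in a deeper library, was read from the steps between low values. It ran from 0.746 in an Ezh1-present tamoxifen library to 1.24 in an Ezh1-null oil one. A value 2-fold larger than 0.746 lay outside the search and would also have been read as 0.746. Which library was deepest is thus not certain. Between 67.2% and 73.7% of the low values were within 0.01 of a whole number of reads, and that count was not used for testing. Ezh1 itself differed by -3.53 ± 0.10 (SE) log2 units between Ezh1-null and Ezh1-present oil cells and by -3.17 ± 0.10 between the tamoxifen groups, with limma adjusted p of 0.00108 and 0.000793. The Ezh2 change with tamoxifen was -0.47 ± 0.08 in Ezh1-null cells (limma adjusted p = 0.0554, and 0.0283 to 0.205 over 15 alternative fits) and -0.18 ± 0.08 in Ezh1-present cells (0.293), and a value for a whole gene does not resolve a deleted exon. By genotype, Ezh2 differed by -0.31 ± 0.08 log2 units in oil (limma adjusted p = 0.0492) and by -0.60 ± 0.08 after tamoxifen (0.02). Ezh2 was thus called lower in Ezh1-null cells in both, and its part in the genotype results was not tested. All 8 leukaemic progenitor markers, Kit among them, were above the floor in every library. The labels give no batch or date.

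Among the long members, Slfn5 stood highest in Ezh1-null tamoxifen cells, at 1.60 and 2.01 log2 units relative to its median, against -0.21 and -1.08 in Ezh1-null oil cells. Ezh1-present tamoxifen cells had 0.21 and 0.75, against -0.78 and -0.89 in Ezh1-present oil cells. The tamoxifen libraries lay above the oil libraries in both genotypes, while the oil groups of the 2 genotypes overlapped. Slfn8 had 1.65 and 1.82 in Ezh1-null tamoxifen cells, against 0.13 and -0.83 in Ezh1-null oil cells. In Ezh1-present cells it had -0.13 and 0.87 after tamoxifen, against -1.16 and -1.61 in oil. Slfn8 thus ran in the same order of group means as Slfn5, with Ezh1-null oil and Ezh1-present tamoxifen libraries overlapping in the middle. Slfn9 had 0.63 and 0.86 in Ezh1-null tamoxifen cells, against 0.00 in both Ezh1-null oil libraries, which stood on either side of the gene's median. In Ezh1-present cells Slfn9 had -0.44 and 0.49 after tamoxifen, against -1.03 and -1.31 in oil. The Ezh1-present oil libraries were the lowest 2 of 8 for Slfn8 and for Slfn9.

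The short members followed another order, in which genotype came before treatment. Slfn1 had 1.66 and 0.74 in Ezh1-null tamoxifen cells, against 0.09 and 0.15 in Ezh1-null oil cells. It had -1.34 and -0.09 in Ezh1-present tamoxifen cells, against -2.95 and -2.40 in Ezh1-present oil cells. No 2 groups overlapped, and the range of 4.61 log2 units over the 8 libraries was the widest in the family. Slfn2 kept the same order of groups without overlap over a narrower range, 2.34 log2 units. Slfn2 had 1.19 and 0.73 in Ezh1-null tamoxifen cells, against 0.08 and 0.44 in Ezh1-null oil cells. It had -0.44 and -0.08 in Ezh1-present tamoxifen cells, against -1.15 and -0.96 in Ezh1-present oil cells. All Ezh1-null libraries thus lay above all Ezh1-present ones for both short members.

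The intermediate members differed from each other. Slfn4 had 1.62 and 0.66 in Ezh1-null tamoxifen cells, against 1.09 and 1.30 in Ezh1-null oil cells. It had -1.61 and -0.66 in Ezh1-present tamoxifen cells, against -1.55 and -1.50 in Ezh1-present oil cells. The 2 genotypes were apart by at least 1 log2 unit in every pair of libraries, while tamoxifen and oil libraries overlapped in both genotypes. Slfn3 moved least, with a range of 0.56 log2 units over the 8 libraries, and it was the 1 member whose lowest libraries were the Ezh1-null tamoxifen ones. These had -0.37 and -0.17, against 0.00 in both Ezh1-null oil libraries. Slfn3 had -0.01 and 0.19 in Ezh1-present tamoxifen cells, against 0.09 and 0.11 in Ezh1-present oil cells. Replicates of 1 group differed by up to 1.24 log2 units for Slfn1, 1.00 for Slfn8, 0.96 for Slfn4, 0.93 for Slfn9 and 0.88 for Slfn5, and by up to 0.46 for Slfn2 and 0.20 for Slfn3. For all 7 members, Ezh1-present tamoxifen replicate 1 was the lower library of its pair. It was also the library with the smallest value read for 1 read, which may make it the deepest. The part of depth in that gap was not tested.

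**Figure D1:**
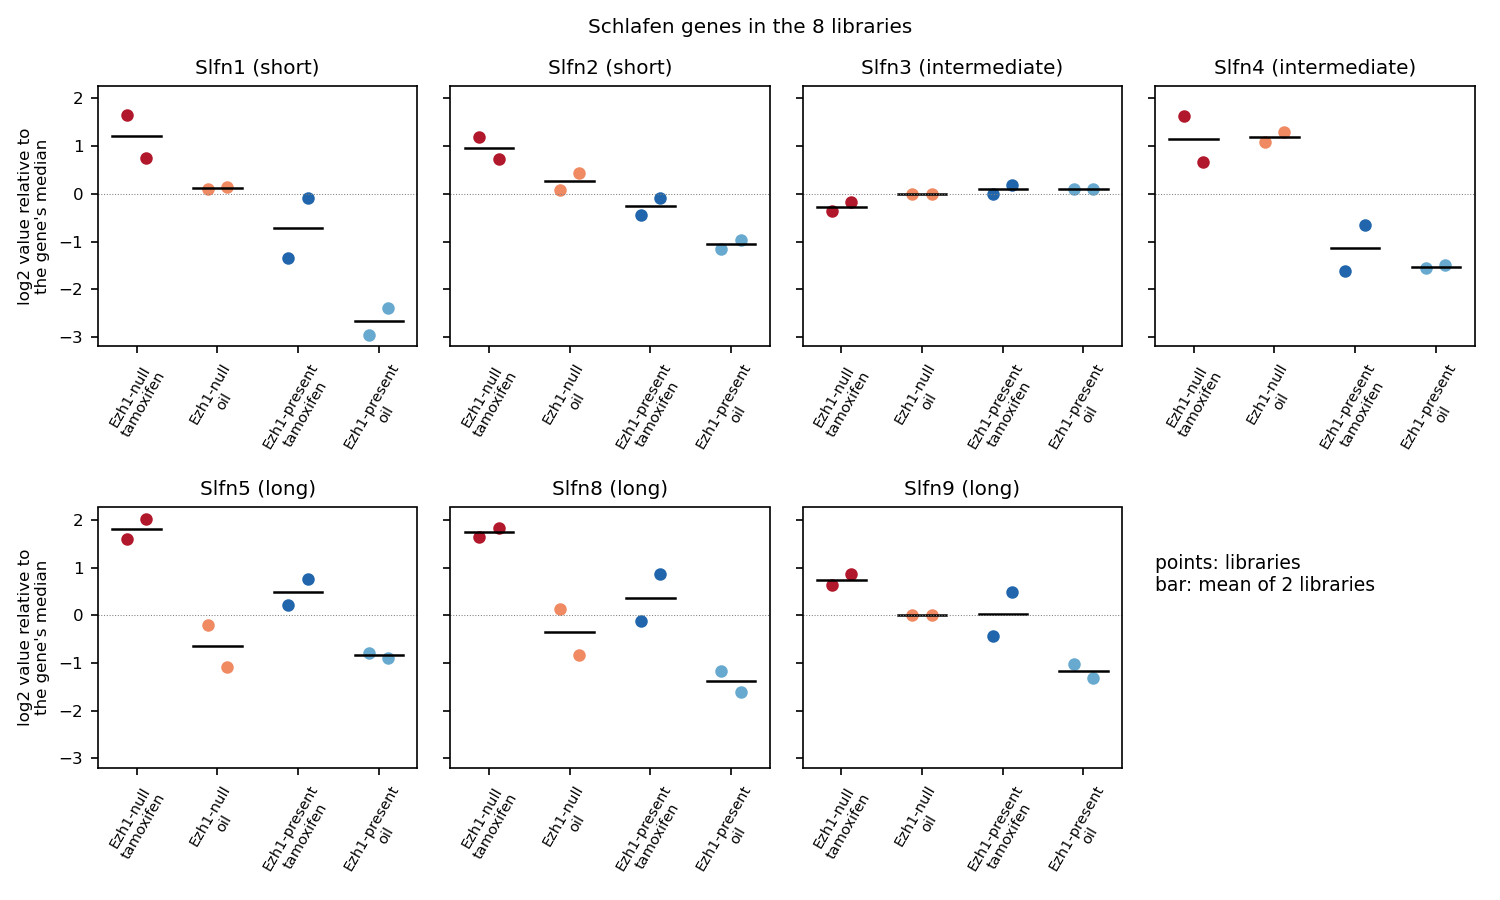
Log2 value relative to the gene's median (vertical axis) of each Schlafen gene in each library, by group; points are libraries and bars the mean of 2 libraries. Slfn5 and Slfn8 are highest in Ezh1-null tamoxifen cells, Slfn1, Slfn2 and Slfn4 separate the Ezh1 genotypes, and Slfn3 spans only 0.56 log2 units.

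Deletion of Ezh2 by tamoxifen in Ezh1-null cells was accompanied by higher Slfn5, the interferon-inducible long member at the end of the cluster. Slfn5 rose by 2.45 ± 0.35 log2 units (SE), or 5.47-fold, with a limma adjusted p of 0.0344. It was the 1 member of 7 called at an adjusted p under 0.05, against 3.40% of all 18051 genes called in this comparison and 3.10% called higher. Slfn8 had a change of 2.08 ± 0.46 (adjusted p = 0.0896), with a 95% interval of 0.92 to 3.24. Slfn1 had 1.08 ± 0.51 (0.366), Slfn9 0.74 ± 0.32 (0.318) and Slfn2 0.70 ± 0.23 (0.209). The intermediate members had -0.06 ± 0.43 (Slfn4, 0.982) and -0.27 ± 0.12 (Slfn3, 0.314). The tamoxifen libraries lay above the oil libraries for 5 of 7 members, against 24.5% of all genes, and below for 1, Slfn3, against 24.8%. The median change was 0.74 over the 7 members, and 3 of 7 were at least 2-fold higher, against 12.6% of all genes. At an unadjusted p under 0.05, 3 of 7 passed, against 17.9% of all genes. Medians over all genes lay between -0.04 and 0.015 log2 units in the 4 comparisons.

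The Slfn5 call depended on the fit. In leave-one-out fits it held only without Ezh1-null oil replicate 1, at an adjusted p of 0.0419. It was lost without Ezh1-null tamoxifen replicate 1 (0.114) or 2 (0.153), without Ezh1-null oil replicate 2 (0.0807), without 1 or the other of the Ezh1-present tamoxifen pair (0.0611 each) or of the Ezh1-present oil pair (0.0814 each). The change itself stayed between 2.01 and 2.89 log2 units. With only the 2 groups compared, the adjusted p was 0.167.

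In Ezh1-present cells, 5 of the 7 members had tamoxifen libraries wholly above the oil libraries, but 0 of 7 were called by limma, against 0.903% of all genes. At an unadjusted p under 0.05, 5 members passed, against 20.6% of all genes. Slfn1 had the highest change, 1.96 ± 0.51 log2 units, or 3.90-fold, with an adjusted p of 0.132 and a 95% interval of 0.66 to 3.26. Slfn8 had 1.75 ± 0.46 (0.132), Slfn5 1.31 ± 0.35 (0.138), Slfn9 1.19 ± 0.32 (0.137) and Slfn2 0.79 ± 0.23 (0.159). Slfn4 had 0.39 ± 0.43 (0.653) and Slfn3 -0.01 ± 0.12 (0.970), and their groups overlapped. Without Ezh1-present tamoxifen replicate 1, the Slfn9 change was 1.66 with an adjusted p of 0.0404. The median over the 7 members was 1.19 log2 units, 4 of 7 were at least 2-fold higher against 10.6% of all genes, and groups not overlapping in that direction made up 28.5% of all genes.

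The tamoxifen change was not shown to differ between the genotypes for any member. Limma's interaction term called 0 of 7 members and 0.476% of all genes, and 0 members passed at an unadjusted p under 0.05 against 14.9% of all genes. The Slfn5 change in Ezh1-null cells exceeded that in Ezh1-present ones by 1.14 ± 0.50 log2 units (adjusted p = 0.368), with a 95% interval of -0.13 to 2.40. For Slfn1 the same difference was -0.89 ± 0.72 (0.606), and its interval ran from -2.72 to 0.95.

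Loss of Ezh1 with the Ezh2 gene intact, compared between the oil groups, was accompanied by higher expression of both short members and of Slfn4. Ezh2 expression was lower in the Ezh1-null oil cells as well, with a change of -0.31 ± 0.08 log2 units. Slfn1 rose by 2.80 ± 0.51 log2 units, or 6.96-fold (limma adjusted p = 0.0181). Slfn4 rose by 2.72 ± 0.43, or 6.59-fold (0.0124), and Slfn2 by 1.31 ± 0.23, or 2.49-fold (0.0167). Thus 3 of 7 members were called, all higher, against 24.9% of all genes called and 12.5% called higher. The long members were not called. Slfn9 had 1.17 ± 0.32 (0.0519), Slfn8 1.03 ± 0.46 (0.161) and Slfn5 0.19 ± 0.35 (0.729), the last with a 95% interval of -0.71 to 1.09. Slfn3 had -0.10 ± 0.12 (0.556). Libraries did not overlap for 5 higher members, against 31.0% of all genes, and for 1 lower member, Slfn3, against 34.7%. The median over the members was 1.17 log2 units, and 5 of 7 were at least 2-fold higher against 9.69% of all genes. At an unadjusted p under 0.05, 4 members passed, against 39.8% of all genes.

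Leaving out an oil library changed these calls. Slfn1 was not called without Ezh1-null oil replicate 1 (0.0696) or 2 (0.0815), nor without Ezh1-present oil replicate 1 (0.0916) or 2 (0.0587). Slfn2 was not called without Ezh1-null oil replicate 2 (0.0776) or without Ezh1-present oil replicate 1 (0.0861) or 2 (0.0607). Slfn4 was not called without the same 3 libraries, at 0.0642, 0.0671 and 0.0583. Slfn9 was called without either Ezh1-present tamoxifen library, at 0.0154 each. In these fits a single library stood for its group and was assumed to vary like the others.

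After tamoxifen, with Ezh2 deleted in both genotypes, the Ezh1-null cells again had higher Slfn4 and Slfn2. Slfn4 rose by 2.28 ± 0.43 log2 units, or 4.84-fold (limma adjusted p = 0.0345), and Slfn2 by 1.22 ± 0.23, or 2.34-fold (0.0353). These were 2 of 7 members, against 12.2% of all genes called and 6.77% called higher. Slfn1 had 1.91 ± 0.51 (0.0704), Slfn8 1.36 ± 0.46 (0.113), Slfn5 1.33 ± 0.35 (0.0695) and Slfn9 0.72 ± 0.32 (0.189). Slfn3 had -0.36 ± 0.12 (0.103), with Ezh1-null libraries below Ezh1-present ones, as in 31.8% of all genes. The other 6 members had Ezh1-null libraries above Ezh1-present ones, against 30.7% of all genes, and the median over the 7 was 1.33 log2 units. At least 2-fold higher were 5 of 7, against 8.96% of all genes, and 6 of 7 passed at an unadjusted p under 0.05, against 32.3%. Neither call held in any of the 8 leave-one-out fits. The Slfn4 adjusted p was 0.120 or 0.0654 on leaving out replicate 1 or 2 of the Ezh1-null tamoxifen pair, and 0.107 or 0.0561 for the Ezh1-present tamoxifen pair. It was 0.0663 with an Ezh1-null oil library left out and 0.0698 with an Ezh1-present one left out. For Slfn2 these were 0.133, 0.0740, 0.124, 0.0771, 0.0557 and 0.0674, in the same order. With only the 2 groups compared, they were 0.136 for Slfn4 and 0.116 for Slfn2. The 4 comparisons share libraries, so their values for a member are not independent of one another.

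**Figure D2:**
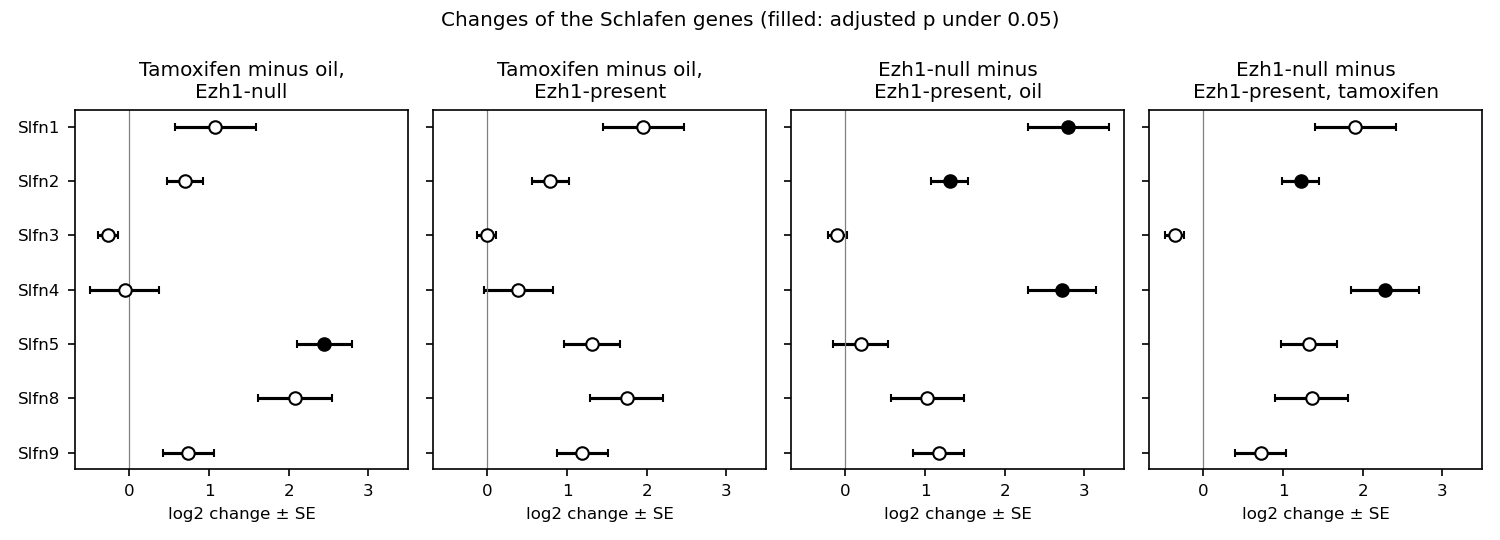
Log2 change ± SE (horizontal axis) of the 7 Schlafen genes in 4 comparisons of 2 libraries with 2; filled points have a limma adjusted p under 0.05. Slfn5 is filled for tamoxifen minus oil in Ezh1-null cells, Slfn1, Slfn2 and Slfn4 for the genotype comparison in oil, and Slfn2 and Slfn4 for that after tamoxifen.

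Within the cluster, some members lying side by side moved together and others did not. Slfn2 and Slfn1 had Ezh1-null minus Ezh1-present changes of 1.31 and 2.80 log2 units in oil. Slfn4 and Slfn3, 1113 bases apart, had Ezh1-null minus Ezh1-present changes of 2.72 and -0.10 log2 units in oil. Of the genes within 250 kb of the span, 21 other than the 7 members were tested, among them the pseudogenes Slfn10-ps and Slfn14-ps. In these, limma called 0 for tamoxifen minus oil in Ezh1-null cells and 0 in Ezh1-present cells, against 3.40% and 0.903% of all genes. With shares this low, 0 calls among 21 genes do not set the neighbours apart. At an unadjusted p under 0.05, 2 and 1 passed, against 17.9% and 20.6% of all genes. Their median change in Ezh1-null cells was -0.01 log2 units, and single values ran from -2.04 (Slfn14-ps) to 1.94. For Ezh1-null minus Ezh1-present, 3 of 21 neighbours were called higher in oil, where 12.5% of all genes were, and 4 after tamoxifen, where 6.77% were, and none were called lower. Mmp28, a matrix metalloproteinase gene, had 3.70 in oil and 3.97 after tamoxifen, and 1700020L24Rik had 1.58 and 1.05. Rffl had 0.49 after tamoxifen. The oil calls of Mmp28 and 1700020L24Rik held in all 15 alternative fits. After tamoxifen the calls were lost in 4 of 15 alternative fits for Mmp28, 6 for 1700020L24Rik and 10 for Rffl.

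**Figure D3:**
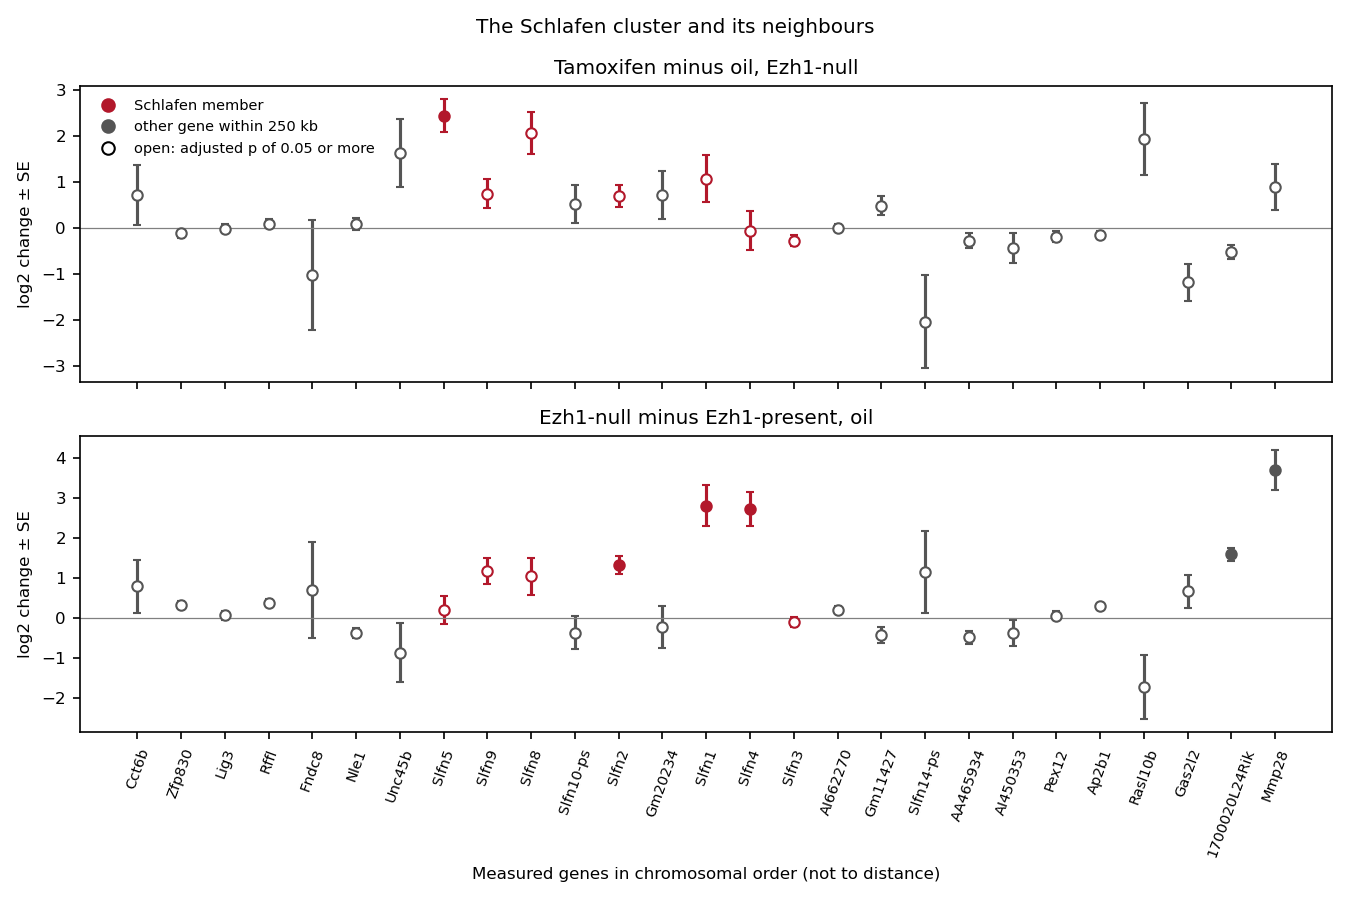
Log2 change ± SE (vertical axis) of the 7 Schlafen members and 20 of the 21 other tested genes within 250 kb of their cluster, in chromosomal order, for tamoxifen minus oil in Ezh1-null cells (top) and Ezh1-null minus Ezh1-present in oil (bottom); filled points have a limma adjusted p under 0.05. Slfn5 is the 1 filled gene at the top, and Slfn2, Slfn1, Slfn4, 1700020L24Rik and Mmp28 are filled at the bottom, where 1 more called neighbour is not drawn.

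Members share sequence, so part of their counts may have been split between copies. Cut into stretches of 50 bases, GENCODE M21 transcripts of Slfn5 shared 0% with other Schlafen genes, those of Slfn1 0.606% and those of Slfn2 4.27%. The share was 7.39% for Slfn3, 8.15% for Slfn4, 11.2% for Slfn9 and 14.6% for Slfn8, and the pseudogene Slfn10-ps held most of what Slfn8 shared. Slfn8 and Slfn9 are the least certain in this respect. The row Gm20234 overlaps Slfn2 by 4927 bases and was above the floor in all 8 libraries. The row 1700003F17Rik overlaps Slfn5 by 8580 bases and was above the floor in 1 library. Whether counting used strand is not given in the sources used here, so reads of overlapping rows cannot be told apart.

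Across the 8 libraries, the profiles of Slfn1 and Slfn2 were the most alike of the 21 pairs of members, with Pearson r 0.98 and Spearman rho 1.00. Slfn5 and Slfn8 had r 0.96 and rho 0.90, and Slfn8 and Slfn9 had 0.93 and 0.93. Slfn9 was as close to Slfn1 (r 0.93, rho 0.88) as to Slfn8, and closer to Slfn2 (0.89, 0.88) than to Slfn5 (0.81, 0.74), so these profiles cross the division into short and long members. Slfn4 was closer to Slfn1 (r 0.88, rho 0.86) and Slfn2 (0.89, 0.86) than to Slfn5 (0.36, 0.14). Slfn3 ran against every other member, with r between -0.79 and -0.56. These 8 libraries form 4 groups, so r mostly describes the order of the group means.

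Among 15510 genes outside the family with no library at the floor, the most similar to Slfn5 were Irf7 and Oasl2, both with r 0.988 (rho 0.929 and 0.976). Irf7 encodes a transcription factor of the interferon response and Oasl2 a member of the oligoadenylate synthetase family. For Slfn8 they were Trp53inp1 (r 0.994, rho 1.00) and Epsti1 (0.991, 1.00), the second known as an interferon-inducible gene, and for Slfn9 Bivm (0.987, 1.00) and Antxr2 (0.985, 0.976). For Slfn1 they were Lrg1 (0.994, 1.00), whose glycoprotein is stored in neutrophil granules, and Bambi-ps1 (0.988, 0.905). For Slfn2 they were Fam188b (0.996, 1.00) and Cdr2 (0.992, 1.00). The most similar to Slfn4 were Pygl (0.997, 0.905), the liver form of glycogen phosphorylase, and 9830107B12Rik (0.996, 0.905). For Slfn3 they were Npat (0.984, 0.952), a coactivator of histone genes, and Helq (0.976, 0.929), a DNA repair helicase. Many other genes came close, with r over 0.95 for 506 genes with Slfn4, 125 with Slfn1, 105 with Slfn2, 47 with Slfn9, 37 with Slfn8, 34 with Slfn5 and 14 with Slfn3.

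The interferon pathway, through which several Schlafen genes are induced, was read from lists of its ligands, signalling genes and targets. These lists and the cell marker lists below were chosen with earlier results of these data known. The shares of all genes set beside them are therefore not an independent test. In Ezh1-null cells, 13 of 29 tested interferon-stimulated genes rose with tamoxifen and none fell by limma, with a median change of 1.60 log2 units, against 3.10% of all genes called higher. The antiviral protein gene Rsad2 rose by 3.33 ± 0.20 (limma adjusted p = 0.00563). Ifi27l2a rose by 2.91 ± 0.19 (0.00647) and Oas3, an oligoadenylate synthetase, by 1.98 ± 0.17 (0.00884). Of 18 tested signalling genes, 3 rose, namely Usp18, which dampens interferon receptor signalling, by 2.75 ± 0.32 (0.0208), Irf7 by 2.71 ± 0.33 (0.0220) and Irf9, a subunit of the factor that binds the response element, by 0.73 ± 0.10 (0.0286). The median over the 18 was -0.07. The Usp18, Irf7 and Irf9 calls were lost in 4, 8 and 9 of 15 alternative fits, that of Oas3 in 2, and those of Rsad2 and Ifi27l2a in none. Among 5 ligand rows, Ifnb1, the interferon beta gene, was at the floor in 6 libraries and above it in the 2 Ezh1-null tamoxifen libraries. It passed the filter only through these 2 libraries, where it lay on average just 1.00 log2 units above the floor. Ifna1 was above the floor in 1 library, Ifnab and Ifng in 2 each and Ifnk in 3.

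Tamoxifen was accompanied by a rise of 4 of the 29 interferon-stimulated genes in Ezh1-present cells, and the median change was 0.94, where 0.903% of all genes were called in either direction. Rsad2 rose by 2.50 ± 0.20 (limma adjusted p = 0.0242), Ifi27l2a by 1.90 ± 0.19 (0.0319) and Rtp4 by 3.87 ± 0.40 (0.0357). These calls were lost in 8, 8 and 9 of 15 alternative fits. None of the 18 signalling genes was called by limma, with 8 at an unadjusted p under 0.05, against 20.6% of all genes. Leaving out 1 library at a time gave 3 to 11 called targets in Ezh1-null cells and 0 to 8 in Ezh1-present cells, where only the fit without Ezh1-present tamoxifen replicate 1 gave more than 2. Called signalling genes in Ezh1-null cells numbered 0 to 3.

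For Ezh1-null minus Ezh1-present in oil, 9 of 29 interferon-stimulated genes were higher and 1 lower, with a median of 0.55 log2 units, against 12.5% of all genes called higher and 24.9% called. Oas3 rose by 1.37 ± 0.17 (limma adjusted p = 0.00659), Rtp4 by 3.30 ± 0.40 (0.00663) and Ddx58, which encodes the RNA sensor RIG-I, by 2.33 ± 0.34 (0.00998). Of the signalling genes 5 of 18 rose, to be read against the same shares, among them Socs1 by 0.83 ± 0.10 (0.00660) and Irf9 by 0.56 ± 0.10 (0.0157). Over the 15 alternative fits the Irf9 call was lost in 4 and that of Ddx58 in 2, and those of Oas3, Rtp4 and Socs1 in none. After tamoxifen 12 of 29 interferon-stimulated genes were higher and none lower, with a median of 1.01, and 5 of 18 signalling genes were higher and 1 lower, against 6.77% of all genes called higher. Oas3 rose by 1.96 ± 0.17 (0.00783), Oas1a by 1.01 ± 0.11 (0.0129) and Oas2 by 1.80 ± 0.21 (0.0148). Irf9 rose by 0.96 ± 0.10 (0.0113) and Usp18 by 1.98 ± 0.32 (0.0264). After tamoxifen the calls were lost in 6 of 15 alternative fits for Usp18, 4 for Oas1a, 4 for Oas2, 3 for Irf9 and 1 for Oas3. In leave-one-out fits the called targets numbered 2 to 10 in oil and 1 to 10 after tamoxifen, and the called signalling genes 2 to 5 in oil and 1 to 3 after tamoxifen. After tamoxifen the count of 1 came without an Ezh1-null tamoxifen library, for targets and signalling genes alike. The interaction term called 0 of these 29 targets by limma, against 0.476% of all genes. At an unadjusted p under 0.05, 13 passed, against 14.9% of all genes.

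Library by library, the median of the 29 interferon-stimulated genes was 0.91 and 1.11 in Ezh1-null tamoxifen cells, against -0.15 and -0.54 in Ezh1-null oil cells. It was -0.04 and 0.23 in Ezh1-present tamoxifen cells, against -0.74 and -0.83 in Ezh1-present oil cells. Slfn5, Slfn8 and Slfn9 had the same order of group means, although for Slfn9 the middle groups, Ezh1-present tamoxifen and Ezh1-null oil, overlapped with means of 0.02 and 0.00.

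Markers of other blood cells differed between the groups as well, and in RNA from bulk cells fewer cells of a type and less RNA per cell cannot be told apart. The median of 9 mature neutrophil markers was 0.36 to 1.76 in Ezh1-null tamoxifen cells, 0.76 to 1.44 in Ezh1-null oil cells, -1.95 to -0.34 in Ezh1-present tamoxifen cells and -3.53 to -2.89 in Ezh1-present oil cells. For genotype in oil, limma called 6 of the 9 higher and none lower, with a median change of 4.44 log2 units, against 12.5% of all genes called higher, and in the other 3 comparisons it called 0. Without Ezh1-null oil replicate 2 or Ezh1-present oil replicate 1 the 6 became 0, without the other oil libraries 4, and without a tamoxifen library 6 or 7. At an unadjusted p under 0.05, 0 markers passed for tamoxifen in Ezh1-null cells, against 17.9% of all genes. For tamoxifen in Ezh1-present cells 6 passed, against 20.6%, and for genotype after tamoxifen 6, against 32.3%. Between the genotypes, the changes of all members but Slfn3 had the same sign as the markers' median change, 4.44 in oil and 2.12 after tamoxifen. For Slfn5 the oil groups overlapped, and the markers' part in these changes was not tested. None of the 9 was at the floor in any library.

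The median of 12 T and NK cell markers was 0.28 to 0.53 in Ezh1-null tamoxifen cells, -0.79 to -0.61 in Ezh1-null oil cells, 1.13 to 2.32 in Ezh1-present tamoxifen cells and -2.13 to -1.96 in Ezh1-present oil cells. With tamoxifen, 1 of 12 was called higher in Ezh1-null cells, where the list's median change was 1.24, and 2 of 12 in Ezh1-present cells, where it was 3.81. Of all genes, 3.10% were called higher in Ezh1-null cells, and 0.903% were called in Ezh1-present cells. In leave-one-out fits, 0 of 12 were called in Ezh1-null cells whichever library was omitted. In Ezh1-present cells the count was 4 without Ezh1-present tamoxifen replicate 1, 1 without Ezh1-present oil replicate 2 and 0 without any of the others. Cd3e, which defines T cells, was above the floor in 5 libraries, and Gzma and Gzmb in 6 each. The tamoxifen changes of Slfn1, Slfn2, Slfn5, Slfn8 and Slfn9 had the same sign as these medians in both genotypes, that of Slfn4 in Ezh1-present cells only (-0.19 there under quantile normalization), and that of Slfn3 in neither. By genotype, the median change of the T and NK markers was 0.42 in oil and -1.14 after tamoxifen, and that of the 7 members 1.17 and 1.33. The part of the T and NK markers in any of these changes was not tested.

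The 6 B cell markers had medians of 0.55 to 1.85 in Ezh1-null tamoxifen cells and 2.33 to 3.22 in Ezh1-null oil cells. In Ezh1-present cells these were -1.27 to -0.96 after tamoxifen and -1.68 to -0.73 in oil. For Ezh1-null minus Ezh1-present, 4 of 6 were called higher in oil and 3 after tamoxifen, against 12.5% and 6.77% of all genes. Their median changes by genotype were 4.18 log2 units in oil and 2.56 after tamoxifen. Pax5 was above the floor in 5 libraries and Ms4a1 in 6. The 9 tested monocyte and macrophage markers had library medians between -0.51 and 0.48, and 2 of them were called higher with tamoxifen in Ezh1-null cells, against 3.10% of all genes. By genotype, 2 were called higher and 4 lower in oil, against 24.9% of all genes called. After tamoxifen 2 were higher and 3 lower, against 12.2%. Library medians of the 6 tested erythroid markers ran from -2.48 in an Ezh1-present oil library to 2.07 in an Ezh1-present tamoxifen one. Those of the 6 megakaryocyte and platelet markers ran from -1.26 to 2.25 and those of the 6 dendritic cell markers from -1.03 to 0.61. By genotype in oil, limma called 1 erythroid marker higher, 1 megakaryocyte marker higher and 2 lower, and 1 dendritic marker lower. After tamoxifen it called 1 megakaryocyte and 3 dendritic markers lower. Of all genes, 24.9% were called in oil and 12.2% after tamoxifen. Library medians of the 8 leukaemic progenitor markers stayed between -0.34 and 0.29, but single markers differed. By genotype in oil, 3 of these 8 were called higher and 1 lower, and after tamoxifen again 3 higher and 1 lower, against the same shares. With tamoxifen in Ezh1-null cells, 1 was called lower, against 3.40% of all genes called. With tamoxifen, the T and NK list was not alone in a median change above 0 in both genotypes. Neutrophil markers had 0.15 in Ezh1-null and 2.23 in Ezh1-present cells, monocyte and macrophage markers 0.20 and 0.81, and megakaryocyte markers 1.26 and 2.39. The B cell, erythroid and leukaemic progenitor medians fell in Ezh1-null and rose in Ezh1-present cells, and the dendritic one fell in both. The part of these cell types in the Schlafen results was not tested either.

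**Figure D4:**
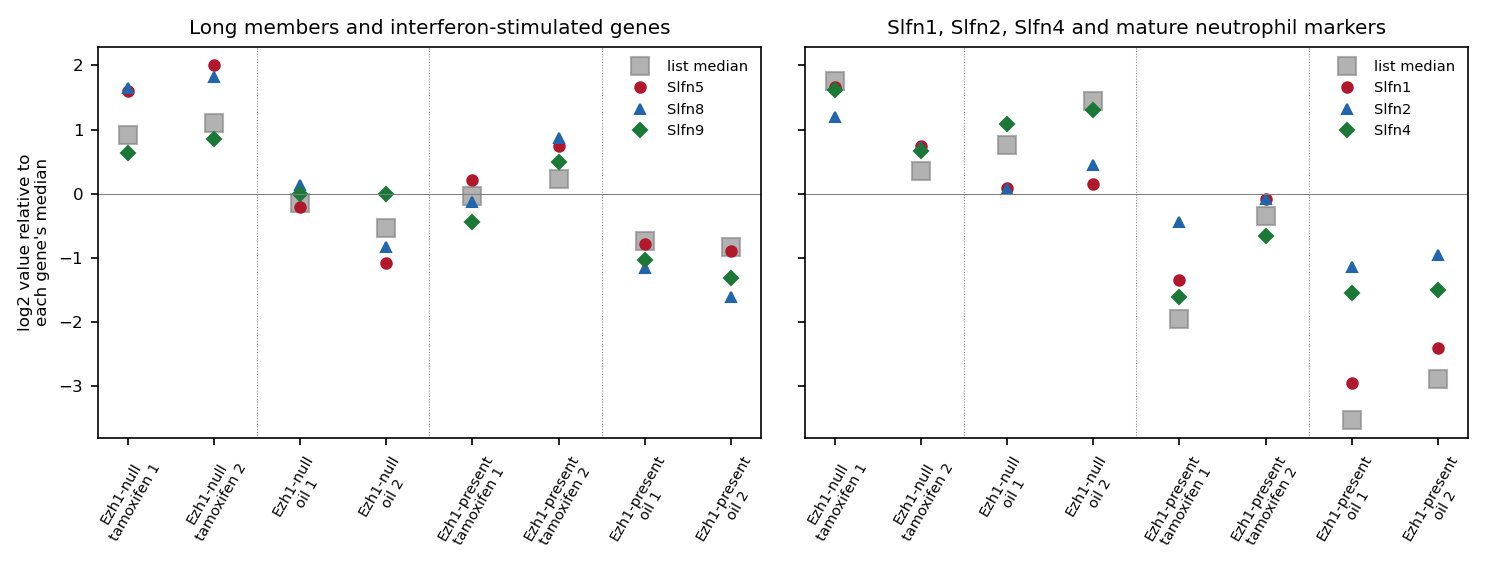
Log2 value relative to each gene's median (vertical axis) in each library, with grey squares for the median of 29 interferon-stimulated genes (left) or 9 mature neutrophil markers (right) and coloured points for the Schlafen genes named in the legends. The squares on the left are highest in Ezh1-null tamoxifen cells (0.91 and 1.11) and those on the right lowest in Ezh1-present oil cells (-3.53 and -2.89).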

How the data were processed

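RNA sequencing libraries of 8 samples in 4 groups of 2 were used, made with a TruSeq RNA kit from 1 ug of total RNA, per the labels' protocols. Per the file headers, the authors kept genes between the 20th and 100th percentile of the raw data, and the deposited values are log2 normalized expression. In the values, each gene is centred on its median over the 8 libraries. The build is mm10, per the submitters' processing notes. Which aligner, counter and scaling were used is not given in the sources.

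The fit used limma 3.58.1 in R 4.3.3, with all 8 libraries, 1 coefficient per group and untrended empirical Bayes variances. The fit covered the 18051 rows above the floor in at least 2 libraries. Of the other rows, 12530 were at the floor throughout and 993 were above it in 1 library. P-values were adjusted over all tested rows by Benjamini-Hochberg, and a gene was called at an adjusted p under 0.05. Residual degrees of freedom were 4, with a prior of 1.24. An exact permutation test of 2 libraries against 2 cannot go below p = 0.333. Fits were tested on simulated data. The depth is unknown beyond the relative value of 1 read, since the values are not counts.

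Named genes were the 7 members, called neighbours within 250 kb, the 2 genes with the highest r to each member, the 3 called genes with the smallest p in each interferon list, and Ezh1 and Ezh2. Of these, 1 neighbour and 1 signalling gene are not reported here. The members and lists were chosen with earlier results of these data known. Promoter windows came from RefSeq and transcripts from GENCODE M21. Replicate numbers did not pair libraries across groups, so the fit had no block. Alternatives were robust moderation, quantile normalization, aligned library medians, no filter, rows with all 8 libraries above the floor, the 2 groups alone, a replicate block and leaving out each library.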

Additional observations from a re-analysis of the deposited data

How the results depend on the processing

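The number of Schlafen members called by limma was 0 with only the 2 groups compared and 0 with the replicate block for tamoxifen minus oil in Ezh1-null cells, in place of 1, and likewise 0 and 0 for Ezh1-null minus Ezh1-present after tamoxifen, in place of 2. The block was only a check: deviations of same-numbered libraries correlated at -0.091 to 0.124 over 6 pairs of groups, with 1 of 6 over 0.1, so the numbers do not pair the libraries. Leaving out 1 library at a time gave 0 to 1, 0 to 1, 0 to 4 and 0 to 0 called members for tamoxifen in Ezh1-null cells, tamoxifen in Ezh1-present cells, genotype in oil and genotype after tamoxifen, and 0 to 0 for the interaction. Over all genes the same order of comparisons had 614, 163, 4493, 2204 and 86 calls, and 176 to 469, 24 to 404, 1707 to 4004, 337 to 1323 and 17 to 98 without 1 library. With only the 2 groups compared the first 4 were 240, 0, 2531 and 27. With the replicate block there were 364 and 23 for tamoxifen in Ezh1-null and Ezh1-present cells, 1179 for genotype after tamoxifen, and 5 for the interaction, which had 37 under quantile normalization and 6 among rows with all 8 libraries above the floor. Among the named genes, signs turned only for changes that were not called. Slfn4 with tamoxifen in Ezh1-present cells was -0.19 under quantile normalization and -0.09 to 0.86 without 1 library. Without 1 library, Slfn4 with tamoxifen in Ezh1-null cells was -0.54 to 0.42, Slfn3 with tamoxifen in Ezh1-present cells -0.12 to 0.09 and Slfn5 by genotype in oil -0.25 to 0.63. The interaction ran from -0.32 to 0.14 for Slfn2, -0.93 to 0.03 for Slfn4, -0.17 to 0.83 for Slfn8 and -0.91 to 0.02 for Slfn9. Slfn5 by genotype after tamoxifen was called under quantile normalization (adjusted p = 0.0272), and Slfn9 by genotype in oil with only the 2 groups compared (0.0375) and among rows with all 8 libraries above the floor (0.0410). The cause of these shifts was not tested. A moderation trend on mean level was not run, because the deposited values hold no level for rows with no library at the floor.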

Other observations

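The table holds 3 more rows with a Schlafen symbol, which are outside the 7 members. Slfnl1, a Schlafen-like gene on chromosome 4, had 0.04 and 0.99 log2 units relative to its median in Ezh1-null tamoxifen cells, against -1.05 and -0.57 in Ezh1-null oil cells. It had -1.05 and -0.04 in Ezh1-present tamoxifen cells, against 1.59 and 0.76 in Ezh1-present oil cells. Its highest library was thus an Ezh1-present oil one, the group in which Slfn1, Slfn2, Slfn8 and Slfn9 were lowest, and 2 of its values, both -1.05, were at the floor. The pseudogene Slfn10-ps, between Slfn8 and Slfn2, was above the floor in all 8 libraries and ranged from -0.94 to 0.41. The pseudogene Slfn14-ps was above the floor in 4 libraries.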
